A study of Mus musculus with 17 samples.

Results

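The 10 genes described here are feedback regulators and transcription factors of the FGF and RAS-ERK pathway: the phosphatases Dusp4, Dusp5 and Dusp6, the Sprouty genes Spry1, Spry2 and Spry4, the Sprouty-related genes Spred1 and Spred2, and the ETS-domain factors Etv4 and Etv5. They were chosen by symbol, and each stood on a row of the table of read counts, which holds 56691 gene rows. They were followed through 17 libraries of cultured mouse astrocytes in 5 groups. Astrocytes were purified by immunopanning from whole C57BL/6 brains of early postnatal mice without olfactory bulbs and cerebellum, on dishes that removed CD45+ and O4+ cells and then retained HepaCAM+ cells. In the SAG experiment, cultures at 3 d in vitro received SAG, a small-molecule agonist of the sonic hedgehog pathway, at 500 ng/ml (n = 3) or its solvent DMSO (n = 3) for 3 d. In the FGF experiment, cultures at 2 d in vitro received FGF2 (n = 4) or FGF10 (n = 3) at 50 ng/ml, or PBS (n = 4), for 7 d. All cultures were kept in serum-free medium with HB-EGF, a ligand of the EGF receptor, so the control groups also received an agonist of RAS-ERK signaling. The labels do not say which libraries came from the same cell preparation, and p-values therefore measure the spread between these libraries.

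Receptor tyrosine kinases such as FGF and EGF receptors signal through RAS, RAF and MEK to the kinase ERK, and ERK activity induces genes that restrain the same pathway. DUSP6 removes the activating phosphates from ERK in the cytoplasm, DUSP4 and DUSP5 act in the nucleus, Sprouty proteins interfere with the steps between receptor and RAF, and SPRED proteins act with neurofibromin to hold RAS in its inactive form. Etv4 and Etv5 are transcription factors induced downstream of FGF receptors, and transcripts of Dusp6, Spry4, Etv4 and Etv5 are widely used as readouts of FGF-ERK activity in embryos and in the brain.

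On GRCm38, Dusp6 lies at chr10:99263231-99267489, Etv4 at chr11:101769747-101785310 and Etv5 at chr16:22381313-22439570, all protein-coding genes in RefSeq. Promoter sequence is shown for Dusp6 and Etv5, 2 of the 3 genes that were called below. RefSeq (GRCm38.p6) gave windows from 250 bases before to 50 bases after an annotated start for 7 of the 10 genes, 8 windows in all, since Etv5 has 2 starts. None of the 8 windows held ACTTCCGG (an ETS site), TGAATGAA or TGAATGGA (sites of the ERK-regulated repressor Capicua), TGACGTCA (CRE) or TGACTCA (AP-1) on either strand. Of all 32851 windows, 3.89% held the ETS letters, 1.3% and 1.21% the Capicua letters in that order, 1.79% the CRE letters and 5.2% the AP-1 letters. The 6 letters TGAATG, which both Capicua sites contain and which were searched after the windows had been read, occurred in 12.7% of all windows, and among these genes in the windows of Dusp6 and Dusp5 and in the window at the downstream start of Etv5. They occurred once in the Dusp6 window, beginning at base -133 from the start, and 3 times in the Etv5 window, beginning at -242, -198 and -129, where the last lies on the opposite strand; 0.17% of all windows held at least 3 matches. The 250 bases before each start follow from 5′ to 3′, on the plus strand for Dusp6 (chr10:99262981-99263230) and on the minus strand for Etv5 (chr16:22438369-22438618), with TGAATG or its reverse complement in capitals.
Dusp6: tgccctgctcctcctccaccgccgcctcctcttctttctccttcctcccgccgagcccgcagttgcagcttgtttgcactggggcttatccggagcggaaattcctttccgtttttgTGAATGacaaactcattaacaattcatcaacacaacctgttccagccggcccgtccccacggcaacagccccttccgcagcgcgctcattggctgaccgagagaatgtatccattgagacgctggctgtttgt
Etv5: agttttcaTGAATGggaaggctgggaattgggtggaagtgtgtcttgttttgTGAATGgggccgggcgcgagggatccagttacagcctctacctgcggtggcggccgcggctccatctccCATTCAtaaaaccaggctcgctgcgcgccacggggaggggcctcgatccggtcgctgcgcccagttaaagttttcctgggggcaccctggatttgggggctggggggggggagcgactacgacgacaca
A match in letters does not show that a factor binds there, and binding was not measured in these cultures.

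Libraries held 17481727 to 68342287 counts, and no pair of replicates held the same library (chi-square per degree of freedom 152 to 532 over 21 pairs). The cultures carried the astrocyte signature: all 10 astrocyte markers, among them Aqp4, Slc1a3 and Sox9, were above 10 CPM (counts per 1000000 counts, with TMM-normalized library sizes over the 17 libraries) in every library and summed to 3641 to 5838 CPM. The 8 microglia or macrophage markers summed to 0 to 6.38 CPM. Markers of other lineages were present as well. The 8 oligodendrocyte lineage markers summed to 1166 to 2407 CPM, with Olig2 at a mean of 1374 CPM over the 17 libraries. The 4 ependymal markers summed to 83.1 to 568 CPM, with Foxj1 at a mean of 212 CPM. Endothelial or mural markers summed to 41.0 to 357 CPM and neuronal markers to 24.2 to 169.5 CPM. Transcripts of low level often had no count: each library lacked 7.6% to 33.8% of the genes that averaged 5 to 10 CPM elsewhere, but only 0% to 2.13% of those that averaged 20 to 40 CPM. A 0 for a gene of low level was therefore common. No counting intervals are given, as PCR copies of a molecule could be counted more than once.

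Spred1 had the highest level of the 10 genes, with a mean of 153 CPM over the 17 libraries. Spry2 followed at 91.8 CPM, Etv5 at 77.4 CPM, Dusp6 at 53.6 CPM and Etv4 at 34.2 CPM. The libraries were primed on the poly(A) tail and read the 3′ end, so that CPM does not scale with transcript length and levels may be set side by side between genes. Spry1 (23.1 CPM), Spry4 (16.4 CPM) and Spred2 (13.0 CPM) were lower, and Dusp5 averaged 5.77 CPM. Dusp4 was nearly absent: 15 of the 17 libraries had no count, and only DMSO replicate 3 (321 counts, 8.52 CPM) and FGF2 replicate 3 (216 counts, 4.53 CPM) had any. In bulk RNA, fewer cells that express a gene and less RNA per cell cannot be told apart.

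**Figure D1:**
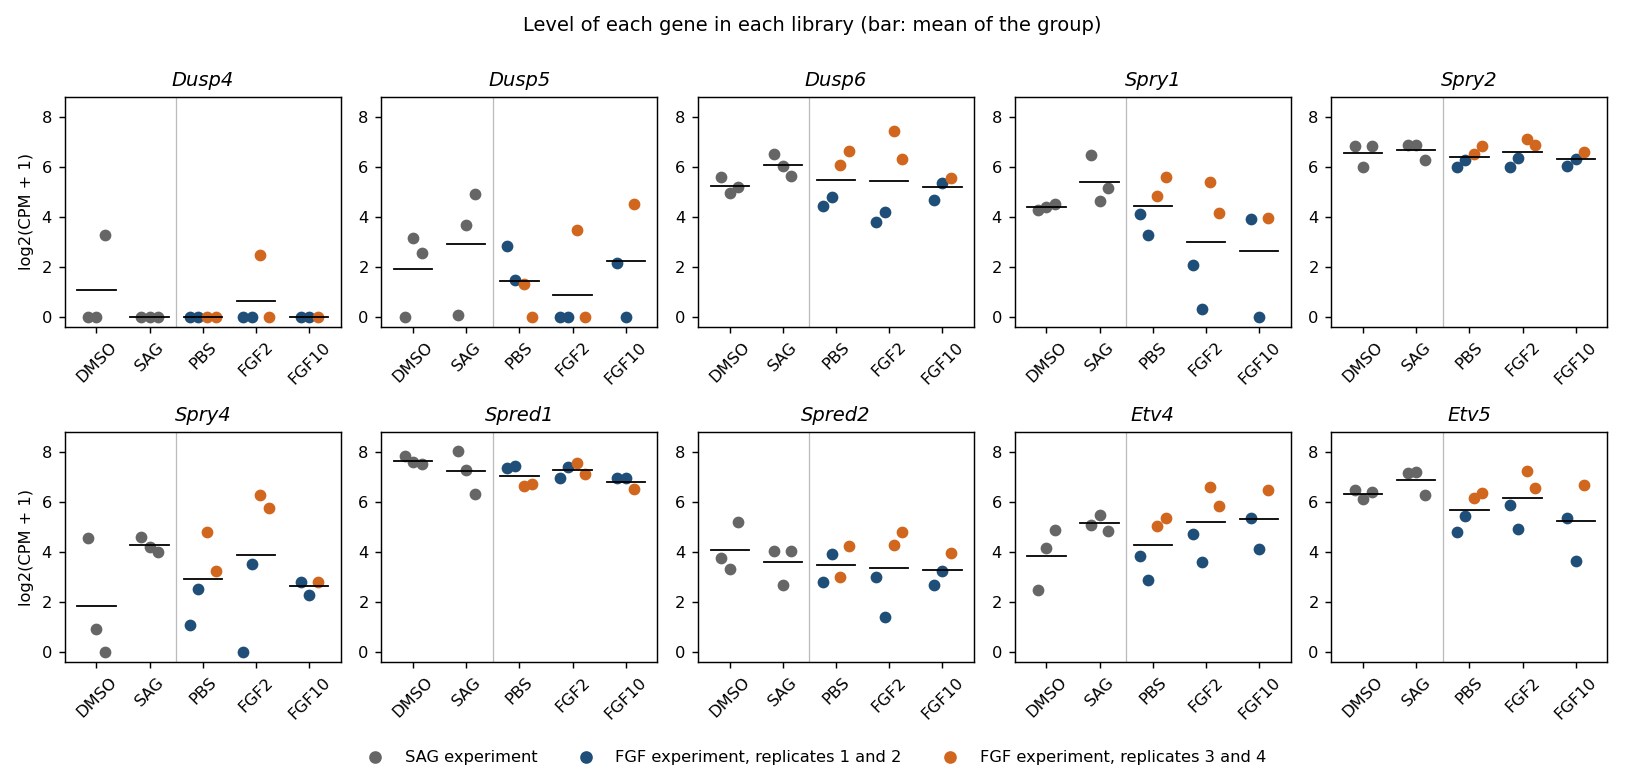
Level of each of the 10 genes as log2(CPM + 1) in each library, by group; a point is 1 library, the bar is the mean of the group, and the color gives the experiment and, for PBS, FGF2 and FGF10, the replicate number. Replicates 3 and 4 lie above replicates 1 and 2 of the same group for Dusp6, Spry1, Spry2, Spry4, Etv4 and Etv5. Spred1 and Spry2 stay within a narrow band, and Dusp4 is at 0 in 15 libraries.

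The genes differed in how much they varied within a group. The within-group SD of log2(CPM + 1) was 1.05 for Dusp6, 0.90 for Etv5 and 1.11 for Etv4. Genes of about the same mean level had median SDs of 0.56, 0.47 and 0.71, respectively. Pooled over the 5 groups, Dusp6 and the ETV factors thus varied more among libraries of one treatment than the median gene of their level. Spry2 (0.41, against 0.43) and Spred1 (0.45, against 0.36) were near that median, and Spry1 (1.59, against 0.90) and Spry4 (1.91, against 1.13) were also above it. These SDs include a split between replicate numbers in the FGF experiment, given below. Dusp6 ran from 29.5 to 46.5 CPM in DMSO but from 12.7 to 169.7 CPM in FGF2, and Etv5 from 68.5 to 88.3 CPM and from 29.2 to 149.5 CPM. Etv4 was spread in DMSO as well (4.64 to 28.1 CPM).

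The pathway's response to its own ligand was examined in the comparison of FGF2 with PBS, in which no gene of the 9 that passed the filter on low counts was called (edgeR quasi-likelihood test, Benjamini-Hochberg adjusted p under 0.05). Dusp4 did not pass the filter in any comparison. Over all 12744 genes tested, 0% were called (223 had an unadjusted p under 0.05, and DESeq2 called 9), and none of the 9 genes had libraries without overlap, compared with 2.45% of all genes. Their median log2(fold-change) was 0.26, against 0.00106 over all genes tested.

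Dusp6 varied within each group by more than the difference between them. It was at 20.7, 26.8, 66.1 and 96.9 CPM in PBS replicates 1 to 4. In the FGF2 cultures of the same numbers it was at 12.7, 17.3, 169.7 and 77.2 CPM. The lowest and the highest of these 8 libraries were both FGF2 cultures, and in both groups replicates 3 and 4 were above replicates 1 and 2. The log2(fold-change) was 0.40 ± 0.71 (SE; edgeR adjusted p = 1.00), and the two-sided exact permutation p was 0.771, where the smallest that the design allows is 0.0286. With a term for the replicate set (numbers 1 and 2, or 3 and 4) the value was -0.02 ± 0.36, so the sign turned.

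Spry4, a Sprouty gene that marks FGF-responsive tissue in the embryo, had the highest fold change of the 9 under FGF2. The PBS cultures, in the order of their numbers, held 1.13, 4.77, 26.9 and 8.58 CPM, and the FGF2 cultures 0, 10.5, 77.2 and 53.8 CPM. FGF2 replicates 3 and 4 were above every other library of the 17, and FGF2 replicate 1 was at 0, so that the groups overlapped. The log2(fold-change) was 1.78 ± 1.38 (edgeR adjusted p = 1.00), with 0.85 ± 3.23 within replicates 1 and 2 (edgeR adjusted p = 1.00) and 1.89 ± 0.64 within replicates 3 and 4 (edgeR adjusted p = 0.924). It was 2.88 without PBS replicate 3 and 1.06 without FGF2 replicate 3, so that its size rested on these libraries.

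Both ETV factors had higher means with FGF2, by less than the spread between libraries. Etv4 was at 13.3, 6.47, 31.6 and 40.6 CPM with PBS, and at 25.6, 11.2, 96.6 and 56.0 CPM with FGF2, in the order of the numbers. In each pair of the same number the FGF2 library was the higher, but the replicate numbers are not known to pair the cultures. The log2(fold-change) of Etv4 was 1.04 ± 0.68, 1.00 ± 0.45 with the replicate set as a term and 0.43 without FGF2 replicate 3 (edgeR adjusted p = 1.00 in each). Etv5 was at 26.8, 42.6, 70.7 and 82.2 CPM with PBS and 58.1, 29.2, 149.5 and 93.6 CPM with FGF2, a log2(fold-change) of 0.58 ± 0.47.

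The other regulators showed smaller values under FGF2, or values with large errors. The log2(fold-change) was 0.24 ± 0.30 for Spry2, 0.20 ± 0.25 for Spred1 and 0.26 ± 0.97 for Spred2. Spry1 was the 1 gene of the 9 with a negative value, -0.70 ± 1.05. Dusp5 was at 0 in 3 of the 4 FGF2 libraries, and its value of 0.11 ± 2.69 has an error too large to give a direction.

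None of the pathway genes around these 9 was called under FGF2 either: 0 of 12 receptors and adaptors, 0 of 15 members of the cascade from RAS to ERK, 0 of 18 other ERK-induced genes, 0 of 4 repressors of ERK target genes and 0 of 3 other MAP kinase phosphatases, and none had libraries without overlap. The gene of smallest p in each list was, in that order, the receptor Fgfr3 (log2(fold-change) 0.70 ± 0.42), the RAF kinase Araf (-0.67 ± 0.31), the early response gene Ier3 (1.03 ± 0.64), the ETS repressor Erf (0.36 ± 0.32) and Dusp8 (0.90 ± 1.47). The list medians lay between -0.0365 and 0.231.

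FGF10, a ligand with a narrower range of receptors than FGF2, also gave no call among the 9 genes. Over all 13309 genes tested, 0% were called (305 had an unadjusted p under 0.05, and DESeq2 called 37), and 4.79% of all genes, but none of the 9, had libraries without overlap. The median log2(fold-change) of the 9 genes was -0.25, against -0.0016 over all genes. This comparison shares its PBS libraries with that of FGF2, and it is not balanced for the replicate numbers: only 1 of the 3 FGF10 libraries, but 2 of the 4 PBS libraries, belong to replicates 3 and 4.

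Etv4 had a positive value in FGF10 cultures, with 39.8, 16.5 and 88.4 CPM in replicates 1 to 3 and a log2(fold-change) of 1.07 ± 0.67 against PBS. The value was 1.42 ± 0.50 with the replicate set as a term, but 0.29 without FGF10 replicate 3, and it was not called in any of these fits (edgeR adjusted p = 1.00 in each). Dusp6, at 24.2, 39.3 and 45.7 CPM, had a log2(fold-change) of -0.53 ± 0.53 that became -0.05 ± 0.43 with that term. Its negative value was thus near 0 once the replicate set was in the fit. Etv5, at 39.8, 11.5 and 102.9 CPM, differed by -0.11 ± 0.60, and Spry4, at 5.97, 3.84 and 6.03 CPM, by -0.97 ± 1.45. Spry1 (-1.40 ± 1.34), Spry2 (-0.10 ± 0.30), Spred1 (-0.26 ± 0.28), Spred2 (-0.25 ± 1.10) and Dusp5 (1.83 ± 2.39) were not called. Around them, no gene was called among 12 receptors and adaptors, 15 cascade members, 19 ERK-induced genes, 4 repressors and 3 phosphatases. The genes of smallest p in these lists were Fgfr3 (0.50 ± 0.31, higher without overlap), Araf (-0.95 ± 0.31, lower without overlap), Ier2 (-1.19 ± 0.75), Atxn1 (0.56 ± 0.43) and Dusp16 (-1.43 ± 0.82).

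Set against each other at the same dose and time, the 2 ligands gave no call among the 9 genes, as over all 13493 genes (0% called, 324 with an unadjusted p under 0.05, and 28 called by DESeq2). Spred1 was the only gene of the 9 whose libraries did not overlap, compared with 4.9% of all genes. It was at 124, 169, 190.5 and 138 CPM with FGF2 and at 123, 123 and 91.9 CPM with FGF10, a log2(fold-change) of 0.47 ± 0.26 (edgeR adjusted p = 1.00, two-sided exact permutation p = 0.0571). The lowest FGF2 library and the highest FGF10 library were about as high as each other. Spry4 had the widest difference, 2.76 ± 1.48, which came to 1.20 ± 1.46 with the replicate set as a term. The median over the 9 genes was 0.51, against 0.00854 over all genes. The same 5 pathway lists, with 12, 15, 18, 4 and 3 genes tested, held no call, and their genes of smallest p were Fgfr1 (0.37 ± 0.30), the RAS exchange factor Sos2 (0.93 ± 0.48), Ier2 (1.30 ± 0.60), Erf (0.62 ± 0.34) and Dusp16 (1.09 ± 0.85).

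**Figure D2:**
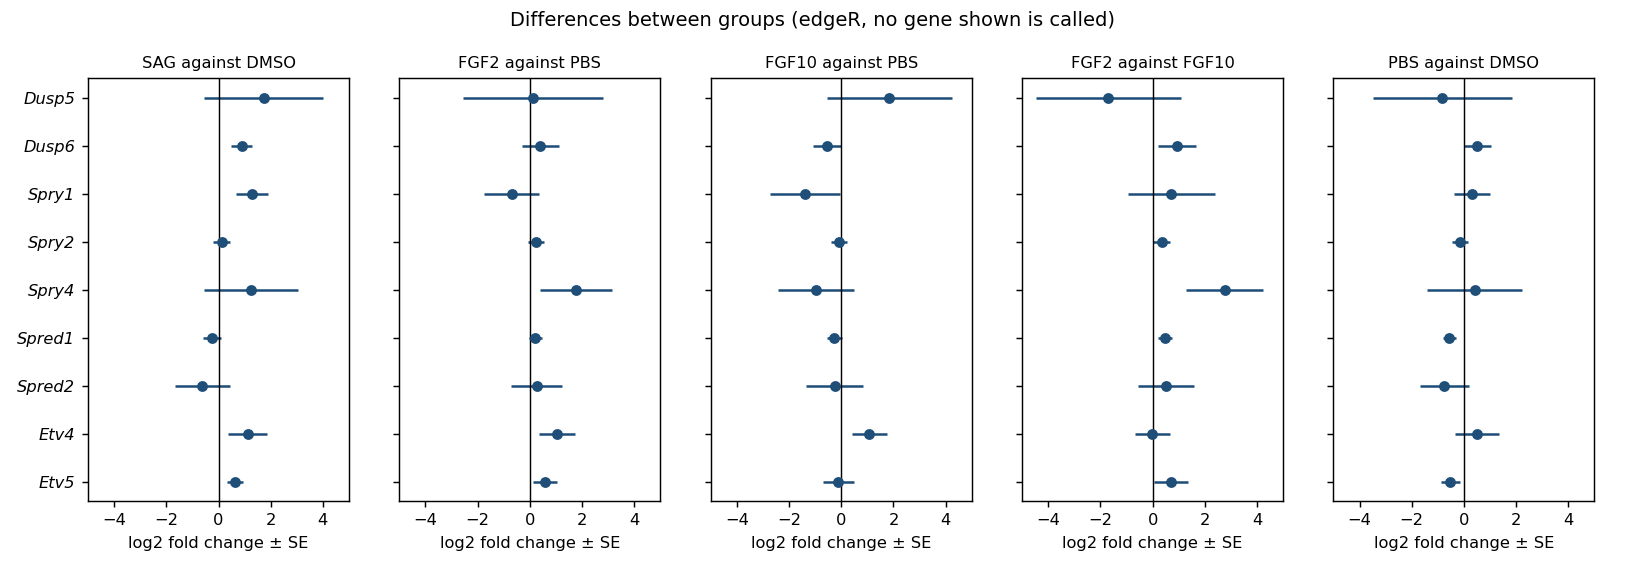
Log2(fold-change) with its standard error (x axis) of the 9 genes that passed the filter in each comparison of groups (edgeR quasi-likelihood test). In SAG against DMSO 7 of the 9 values are above 0, and no gene is called in any of the 5 comparisons.

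SAG acts on Smoothened and not on a receptor tyrosine kinase, and its comparison with DMSO asked whether the same genes moved with hedgehog activation after 3 d. None of the 9 genes was called, against 0.0638% of the 12538 genes tested (8 genes). Over all genes 714 had an unadjusted p under 0.05, and DESeq2 called 367, with none of the 9 among them. Dusp6 and Spry1 were higher in every SAG library than in every DMSO library; 14.2% of all genes had libraries without overlap in 1 direction or the other, and 2 of 9 genes is not set apart from that share. The median log2(fold-change) of the 9 genes was 0.88, against -0.0201 over all genes, with 7 values above 0 and 2 below.

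Dusp6 was at 46.5, 29.5 and 35.8 CPM in DMSO replicates 1 to 3 and at 89.4, 65.1 and 48.5 CPM in SAG replicates 1 to 3. The lowest SAG library was close to the highest DMSO library, and the log2(fold-change) was 0.88 ± 0.40 (edgeR adjusted p = 0.881; unadjusted p = 0.0507). Spry1 was tightly grouped in DMSO, at 18.4, 20.1 and 21.9 CPM, and spread in SAG, at 86.7, 23.4 and 34.5 CPM. Its log2(fold-change) of 1.28 ± 0.61 (edgeR adjusted p = 0.913) rested largely on SAG replicate 1 and came to 0.55 without it. For both genes the two-sided exact permutation p was 0.1, the smallest that 3 against 3 libraries allow.

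Etv5 was at 88.3, 68.5 and 84.6 CPM in DMSO and at 143, 146 and 77.5 CPM in SAG, with SAG replicate 3 inside the DMSO range (log2(fold-change) 0.62 ± 0.30, edgeR adjusted p = 0.948). Etv4 was at 4.64, 16.7 and 28.1 CPM in DMSO and at 33.2, 44.2 and 27.8 CPM in SAG, and overlapped by that last library (1.11 ± 0.76). Spry4 was at 15.2 to 23.4 CPM in the SAG libraries but at 0, 0.919 and 22.8 CPM in the DMSO libraries. The log2(fold-change) of Spry4 was 1.25 ± 1.80, and its size rested on single cultures, at 5.34 without DMSO replicate 1, 0.72 without DMSO replicate 2 and 0.66 without DMSO replicate 3. Like these 3 genes, Spry2 (0.12 ± 0.31), Spred1 (-0.26 ± 0.35), Spred2 (-0.62 ± 1.04) and Dusp5 (1.73 ± 2.27) were not called.

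Among the pathway genes outside the 10, 1 was called in this comparison. Ccnd1, the G1 cyclin that both ERK and hedgehog signaling induce, was the 1 called gene among 18 tested ERK-induced genes outside the set, at 39.4, 68.2 and 34.6 CPM in DMSO and 316, 213 and 177 CPM in SAG (log2(fold-change) 2.33 ± 0.33, edgeR adjusted p = 0.0366). Egfr, the receptor for the HB-EGF of the medium, was at 196, 202 and 221 CPM in DMSO and 521, 470 and 399 CPM in SAG, but was not called (1.19 ± 0.19, edgeR adjusted p = 0.0591). None of the 12 receptors and adaptors was called, nor were any of 15 members of the cascade from RAS to ERK (smallest p for Araf, -1.03 ± 0.34), 4 repressors of ERK target genes (Atxn1, -0.81 ± 0.43) and 3 other MAP kinase phosphatases (Dusp8, 0.86 ± 2.40). The 6 markers of dividing cells summed to 182 to 357 CPM in SAG and 135 to 232 CPM in DMSO, and overlapped. Oligodendrocyte lineage markers summed to 1904 to 2082 CPM in SAG and 1250 to 1699 CPM in DMSO, without overlap. Ependymal markers (85.6 to 148 CPM in SAG, 206 to 275 CPM in DMSO) and astrocyte markers (3931 to 4499, and 4509 to 4756 CPM) were lower in SAG without overlap. The sums of the other lists overlapped. The part of cell content in the differences of the pathway genes was not tested.

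The vehicle groups differed in solvent, days in culture and experiment, which cannot be told apart. No gene of the 9 was called between PBS and DMSO, as over all 13271 genes (0% called, 580 with an unadjusted p under 0.05, and 126 called by DESeq2). Spred1 was lower in every PBS library (165, 174, 99.0 and 105 CPM) than in every DMSO library (229.6, 194 and 181 CPM), where 6.44% of all genes had libraries without overlap. Its log2(fold-change) was -0.56 ± 0.25 (edgeR adjusted p = 1.00). The median over the 9 genes was -0.16, against 0.0183 over all genes. No gene of the pathway lists was called (12, 15, 19, 4 and 3 tested), and the genes of smallest p were Fgfr3 (-1.20 ± 0.31) among the receptors and adaptors, Ccnd1 (1.64 ± 0.64) among the other ERK-induced genes, Erf (-0.49 ± 0.34) among the repressors and Dusp16 (1.04 ± 0.68) among the other phosphatases.

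In order of the group means, Dusp6 ran from FGF2 (69.2 ± 73.2 CPM, SD) through SAG (67.7 ± 20.6), PBS (52.6 ± 35.7) and DMSO (37.3 ± 8.58) to FGF10 (36.4 ± 11.0). Etv5 ran from SAG (122 ± 38.7) through FGF2 (82.6 ± 51.8), DMSO (80.5 ± 10.5) and PBS (55.6 ± 25.4) to FGF10 (51.4 ± 46.8), and Etv4 from FGF10 (48.2 ± 36.7) through FGF2 (47.4 ± 37.7), SAG (35.1 ± 8.36) and PBS (23.0 ± 15.8) to DMSO (16.5 ± 11.7). The libraries of all neighbors in these orders overlapped. The SDs of the FGF2 and PBS groups include a split that ran across treatments.

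Within the FGF experiment, the replicate number divided the libraries more clearly than the treatment did. Dusp6, Etv4 and Etv5 were higher in replicates 3 and 4 (n = 5 libraries: 2 PBS, 2 FGF2, 1 FGF10) than in replicates 1 and 2 (n = 6: 2 of each group), in a fit with the treatment as covariate. These were 3 of the 9 genes tested, compared with 3.7% of the 15849 genes tested overall and 2.1% called in the higher direction. Of the 9 values 8 were above 0, and their median log2(fold-change) was 1.89, against -0.0454 over all genes. The split was noticed in an earlier look at these counts and no label names a batch, so the test gives the size of a difference already seen and is not independent evidence of it.

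Dusp6 averaged 23.5 ± 9.19 CPM in replicates 1 and 2 and 91.1 ± 47.7 CPM in replicates 3 and 4, and the ranges (12.7 to 39.3, and 45.7 to 169.7 CPM) did not overlap. Its log2(fold-change) was 2.00 ± 0.38 (edgeR adjusted p = 0.00176). Both PBS and FGF2 cultures showed the split, and in FGF10 replicate 3 was above replicates 1 and 2.

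Etv5 averaged 34.7 ± 15.9 CPM in replicates 1 and 2 and 99.8 ± 30.3 CPM in replicates 3 and 4, again without overlap (11.5 to 58.1, and 70.7 to 149.5 CPM). Its log2(fold-change) was 1.49 ± 0.31 (edgeR adjusted p = 0.00369). Etv4 averaged 18.8 ± 12.1 and 62.7 ± 28.7 CPM, with FGF10 replicate 1 (39.8 CPM) above PBS replicate 3 (31.6 CPM), and differed by 1.89 ± 0.38 (edgeR adjusted p = 0.00269). Both factors were thus higher in replicates 3 and 4 within each treatment, as Dusp6 was, although FGF10 had only 1 library there. With the replicate numbers permuted within each group, in 108 arrangements, the two-sided exact p was 0.0185 for Dusp6 and 0.00926, the smallest possible, for Etv4 and Etv5.

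Spry2 was also higher in every library of replicates 3 and 4 (88.8 to 138 CPM) than in any of replicates 1 and 2 (61.6 to 80.8 CPM). The difference was small, 0.63 ± 0.21 on the log2 scale, and was not called by edgeR (adjusted p = 0.109), although DESeq2 called it (adjusted p = 0.00944). DESeq2 called more genes in this comparison than edgeR did, 2203 against 586 over all genes. Of all genes, 2.31% were higher without overlap, as Dusp6, Etv5 and Spry2 were. Spry1 (2.39 ± 1.07, edgeR adjusted p = 0.328) and Spry4 (2.58 ± 1.04, edgeR adjusted p = 0.251) had larger values with larger errors. Spry1 ran from 0 to 16.0 CPM in replicates 1 and 2 and from 14.3 to 47.4 CPM in replicates 3 and 4, and Spry4 from 0 to 10.5 CPM and from 6.03 to 77.2 CPM.

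The SPRED genes behaved differently from each other. Spred1 was the 1 gene with a negative value, at 146 ± 25.3 CPM in replicates 1 and 2 and 125 ± 40.7 CPM in replicates 3 and 4 (log2(fold-change) -0.32 ± 0.20, edgeR adjusted p = 0.514). Spred2 was at 7.04 ± 4.07 and 16.9 ± 7.13 CPM (1.28 ± 0.94, edgeR adjusted p = 0.626). Dusp5, with many zeros, differed by 3.55 ± 3.82, which gives no direction.

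**Figure D3:**
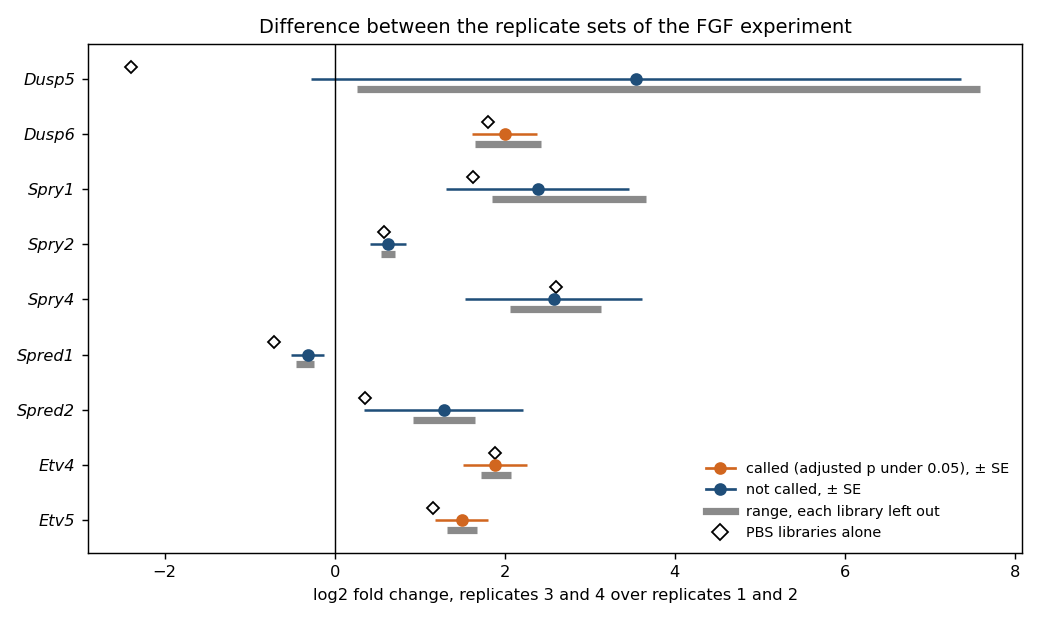
Log2(fold-change) of replicates 3 and 4 over replicates 1 and 2 in the FGF experiment for 9 genes (points with standard error; orange where called at an adjusted p under 0.05), the range when each library is left out in turn (gray bars) and the value in PBS libraries alone (diamonds). Dusp6, Etv4 and Etv5 are called, keep values above 1.3 with any library left out, and lie above 1 in PBS libraries alone.

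PBS cultures alone had values of similar size and larger errors. In the 4 PBS libraries the log2(fold-change) was 1.80 ± 0.46 for Dusp6, 1.89 ± 0.85 for Etv4 and 1.16 ± 0.44 for Etv5, of which none was called (edgeR adjusted p = 0.333 for Dusp6). FGF2 replicate 3 was the highest of the 11 libraries for all 3 genes. Without it, their values were 1.65, 1.73 and 1.39 in that order, and all 3 were still called (edgeR adjusted p = 0.0112, 0.0249 and 0.0218). Without FGF10 replicate 3, the only FGF10 library among replicates 3 and 4, Etv5 was at 1.33 and lost its call (edgeR adjusted p = 0.0552).

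None of the 9 genes was called for a difference of the FGF2 effect between the replicate sets (interaction term of edgeR, 0.0331% of 15100 genes called). All 9 values were above 0, with a median of 1.05 on the log2 scale, against -0.0583 over all genes. The smallest unadjusted p was that of Spred1, 0.0412 (edgeR adjusted p = 0.906), whose FGF2 effect was -0.20 ± 0.26 within replicates 1 and 2 and 0.69 ± 0.28 within replicates 3 and 4. Dusp6 went from -0.65 ± 0.83 to 0.60 ± 0.42, an interaction of 1.25 ± 0.64 (edgeR adjusted p = 0.911). Etv4 had nearly equal values in the sets, 0.91 ± 1.16 and 1.08 ± 0.44.

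Marker RNA of several cell types differed over the same split. All 6 markers of dividing cells (Mki67, Top2a, Ccnb1, Cdk1, Birc5 and Aurkb) were called higher in replicates 3 and 4, with a median log2(fold-change) of 3.16, and their summed level was 101 to 303 CPM in replicates 1 and 2 and 900 to 1352 CPM in replicates 3 and 4. Of the 10 astrocyte markers, 1 was called higher and 4 lower (summed level 4952 to 5838, and 3641 to 4159 CPM), among the lower ones the filament gene Gfap (-2.82, edgeR adjusted p = 2.48e-06). Of the oligodendrocyte lineage markers, 7 of 8 were tested, 1 was called higher (Olig2) and 1 lower, and the sum was 1166 to 1499 CPM and 1841 to 2407 CPM. Ependymal markers (2 of 4 called lower; 346 to 568, and 83.1 to 213.5 CPM), endothelial or mural markers (2 of 5 tested called lower; 158 to 357, and 41.0 to 99.2 CPM) and neuronal markers (1 of 7 tested called lower; 100.2 to 161, and 27.1 to 47.4 CPM) had lower sums. Fibroblast markers had none of 3 called (26.9 to 67.5, and 16.6 to 47.4 CPM), and microglia or macrophage markers summed to at most 4.13 CPM. Total counts (17481727 to 55550088, and 32001914 to 49134217) and the mitochondrial share (17.8% to 20.7%, and 16.6% to 20.1%) overlapped between the sets. The part of these differences in those of Dusp6, Etv4 and Etv5 was not tested.

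A few other genes of the pathway were also called between the replicate sets. Of 20 tested ERK-induced genes outside the 10, 2 were called higher and none lower, and the list had a median log2(fold-change) of 0.52. Egr1, an immediate early transcription factor, averaged 42.1 ± 19.6 CPM in replicates 1 and 2 and 439.6 ± 263 CPM in replicates 3 and 4 (log2(fold-change) 3.33 ± 0.31, edgeR adjusted p = 1.35e-07). Ccnd1 averaged 51.9 ± 23.1 and 408 ± 347 CPM (2.78 ± 0.34, edgeR adjusted p = 7.24e-06). Neither gene had overlapping ranges, and for both FGF2 replicate 3 was the highest library.

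Of 13 tested receptors and adaptors, 2 were called higher and 1 lower. Egfr differed by 0.76 ± 0.17 (edgeR adjusted p = 0.00887) and Fgfrl1, an FGF receptor without a kinase domain, by 1.00 ± 0.26 (edgeR adjusted p = 0.0291), whereas Fgfr1 differed by -0.65 ± 0.18 (edgeR adjusted p = 0.0424). Of 15 members of the cascade from RAS to ERK, 1 was called, the RAS exchange factor Sos1, which was lower (-1.31 ± 0.34, edgeR adjusted p = 0.0279), and the list's median was 0.00264. Of 4 repressors of ERK target genes, Atxn1, a partner of Capicua, was called lower (-1.69 ± 0.34, edgeR adjusted p = 0.00289), and of 3 other MAP kinase phosphatases none was called (smallest p for Dusp8, -1.84 ± 1.31).

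**Figure D4:**
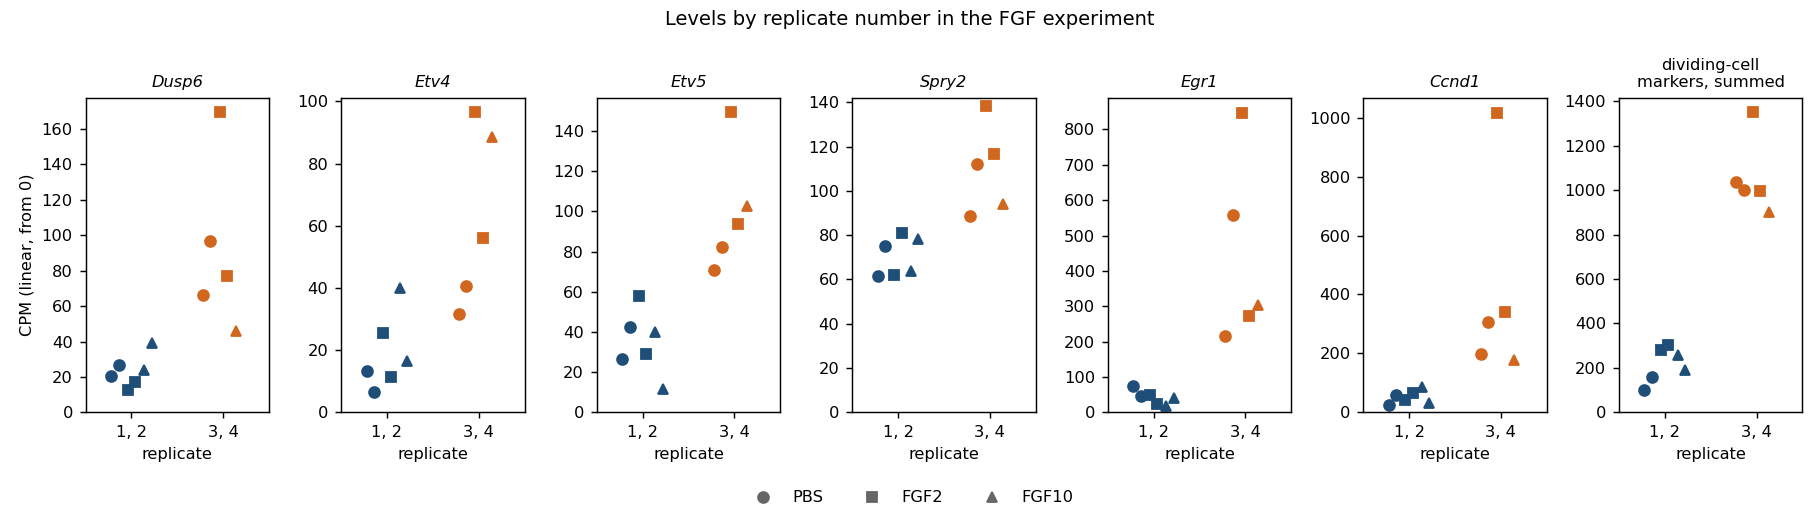
CPM (linear axis from 0) of Dusp6, Etv4, Etv5, Spry2, Egr1, Ccnd1 and the sum of 6 markers of dividing cells in the 11 libraries of the FGF experiment, by replicate number (1 and 2 in blue, 3 and 4 in orange) and treatment (shape). Except for Etv4, where FGF10 replicate 1 lies above PBS replicate 3, every library of replicates 3 and 4 lies above every library of replicates 1 and 2.

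The values of the genes also varied together over the split. Over the 11 libraries of the FGF experiment, with the mean of each group removed, the 36 pairs among the 9 genes had a median Pearson r of 0.58 for log2(CPM + 1), and 22 pairs were above 0.5. With the replicate set also removed, the median was 0.0372 and 9 pairs were above 0.5. FGF10 replicate 3 has no partner in its set and adds nothing to the latter values, which rest on the differences within 5 pairs of libraries. Over the 6 libraries of the SAG experiment the median was 0.104. These values describe the libraries, which share their depth across genes, and carry no test.

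The 9 pairs above 0.5 with the replicate set removed were described after their values were seen. Dusp6 and Spry2 had an r of 0.96 over the 11 libraries and 0.86 with the replicate set removed, whereas Spred1 had 0.79 with Dusp6 and 0.74 with Spry2 there, but -0.17 and -0.19 before. Spry1 had an r of 0.92 with Etv4 and 0.90 with Etv5, which were 0.91 and 0.88 with the replicate set removed, and Etv4 and Etv5 had 0.90 and 0.69. The other 3 pairs were Dusp5 with Spry1 (0.58 before, 0.62 after), Dusp5 with Etv4 (0.47 and 0.65) and Spry4 with Spred1 (-0.02 and 0.65). Between Dusp6, Spry2 and Spred1 on one side and Spry1, Etv4 and Etv5 on the other all 9 values were below 0 with the replicate set removed. They ran from -0.51 (Spry2 with Etv4, 0.71 before) to -0.03 (Spred1 with Etv5, -0.43 before), and Dusp6 with Etv5 went from 0.64 to -0.14. The 6 libraries of the SAG experiment did not show these 2 sides. There the values between the sides had both signs, such as 0.82 for Dusp6 with Etv5 and -0.35 for Dusp6 with Etv4. Within the second side, Etv4 had 0.07 with Etv5 and 0.01 with Spry1.

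**Figure D5:**
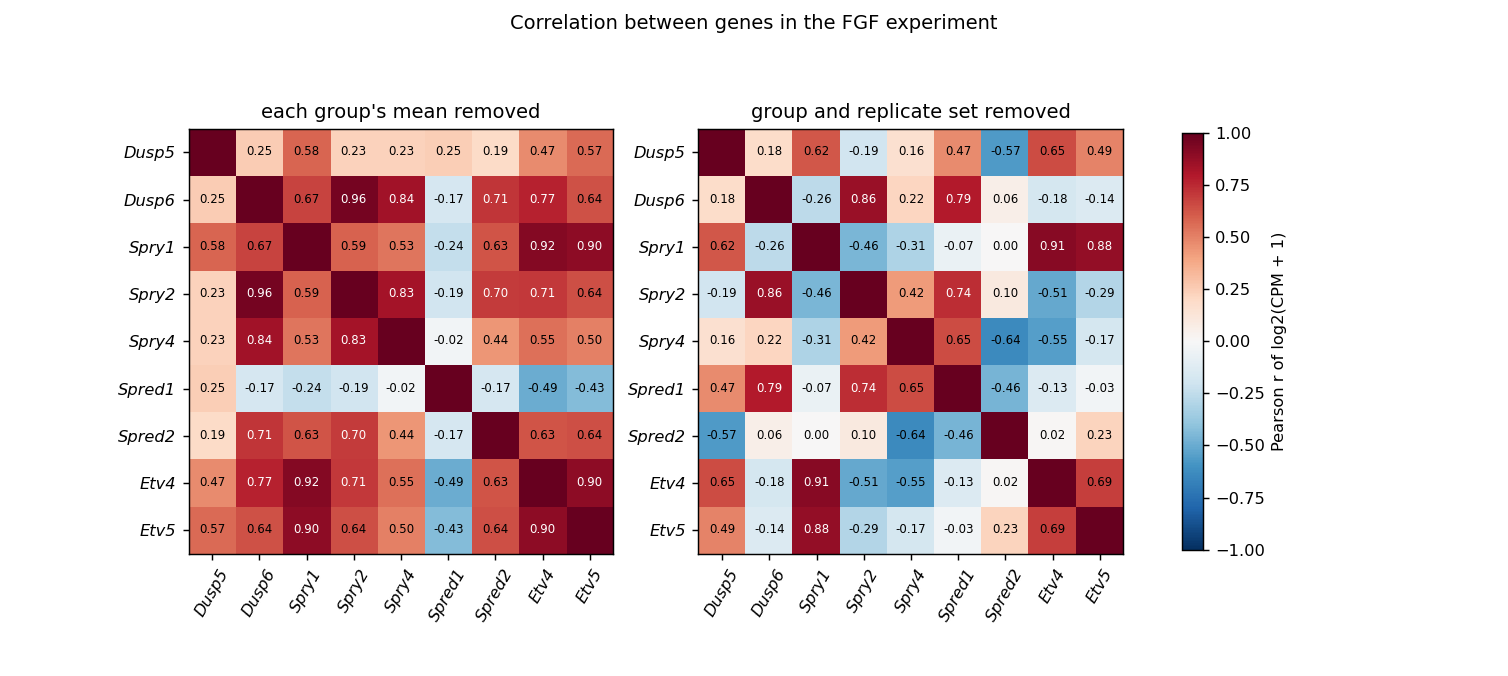
Pearson r of log2(CPM + 1) between pairs of 9 genes over the 11 libraries of the FGF experiment, after removal of each group's mean (left) and of the mean of each group and replicate set (right); red is positive and blue negative. On the left the values other than those of Spred1 are positive; on the right the 3 pairs among Dusp6, Spry2 and Spred1 and the 3 among Spry1, Etv4 and Etv5 are above 0.5, as are Dusp5 with Spry1 and with Etv4, and Spry4 with Spred1.

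Among 9062 other genes with a mean of at least 10 CPM, the 3 with the highest r to Dusp6 over all 17 libraries, after removal of the group means, were Acsbg1 (0.91), Rpl36a (0.91) and Pabpc4 (0.90). Those of Etv5 were Lipa (0.94), Cdc20 (0.94) and P4hb (0.92), of which Cdc20 is an activator of the anaphase-promoting complex in dividing cells. Those of Spred1, the gene with the highest level among the Sprouty and SPRED genes, were Tln2 (0.90), Fam114a2 (0.85) and Spats2 (0.85). No name was shared between the 3 lists. The replicate set was not removed for these values, so they include the split of the FGF experiment.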

How the data were processed

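The authors prepared 3′-end libraries from poly(A) RNA (QuantSeq), removed BC1 transcripts, set the PCR cycles per library, and aligned and counted reads with STAR on GRCm38; they tested with DESeq2, as per the labels and methods. The deposited values are whole-number counts per gene without normalization. The annotation, strand setting and removal of PCR duplicates are not given in the sources used here, so overlapping or antisense genes and PCR copies could change counts. Groups and replicate numbers came from the sample titles; the table names the SAG columns Shh, and these were matched by number. The labels list 4 FGF2 libraries against 3 in the methods, and all 4 entered. Of 56805 rows, 114 spike-in rows (at most 86 counts in a library) were left out.

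Differences were fitted with edgeR 4.0.16 in R 4.3.3: filterByExpr (minimum count 10, minimum total 15), TMM, the quasi-likelihood test, Benjamini-Hochberg adjustment over all genes tested, and a call at an adjusted p under 0.05. Each comparison of groups used only its own libraries, and the replicate sets were compared with the group as covariate. Standard errors come from the fold change and its F statistic. CPM values use 1 TMM scale over 17 libraries, and correlations use a pseudocount of 1. For single genes, CPM was permuted exactly between groups, two-sided. The edgeR fits of SAG against DMSO, FGF2 against PBS and FGF10 against PBS were tested on simulated counts. The simulated spread between libraries was much smaller than that of these data, where the common coefficient of variation was 107% to 115% in these 3 comparisons. The simulation therefore does not show how many changes these fits could miss, and the other fits were not simulated. Alternatives were DESeq2 1.42.0, its size factors in edgeR, no filter, all libraries in one fit, the replicate number or set as a term, each set alone, each library left out, and the threshold of the study (adjusted p under 0.01 and absolute log2(fold-change) above 1). The genes, lists, motifs and comparisons were chosen with earlier results of these data known. All 10 genes are named, with the called members of each pathway list (at most 3) or else the one of smallest p (1 is not reported here), and the 3 genes most like a member for the gene of highest level in each family. The single cell type markers named, and the motif TGAATG, were chosen after their values were seen.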

Additional observations from a re-analysis of the deposited data

Results flagged for a closer look

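In 20 combinations of gene and group with 4 libraries, the highest or lowest library was compared with the rest by Dixon's ratio, which marks about 1 in 20 groups by chance. It marked FGF2 replicate 3 for Dusp4 (4.53 CPM) and for Dusp5 (10.2 CPM), because the other 3 FGF2 libraries had no count of either gene. Genes at this level were often at 0 in single libraries.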

How the results depend on the processing

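Values are log2(fold-change) from edgeR. No alternative called any of the 9 genes in a comparison of groups. The call of Dusp6, Etv4 and Etv5 between the replicate sets held with DESeq2 size factors, without a filter (which added Spry4) and with DESeq2 (which added Spry2). DESeq2 called 2203 genes there, against 586 with edgeR. The call also held at the study's threshold and with each library left out, except Etv5 without FGF10 replicate 3. In the PBS libraries alone 0 genes were called, with 4 libraries in the fit. Of 736 values of single genes, 670 kept their sign and side of the threshold and 60 changed sign, all of them values that were not called; apart from the fewer libraries in some fits, the cause was not tested.

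The replicate numbers of the titles did not meet the rule for pairing: the correlation of deviations between libraries of the same number was -0.0112 to 0.00076 in SAG against DMSO, 0.0976 to 0.11 in FGF2 against PBS, 0.0523 to 0.104 in FGF10 against PBS, 0.0654 to 0.156 in FGF2 against FGF10 and -0.0145 to -0.00263 in PBS against DMSO, and 4 of 8 libraries in FGF2 against PBS correlated best with their own number. With the replicate number as a block, 0 of the 9 genes were called in each of these comparisons, and signs turned in FGF2 against PBS (Dusp5 -5.25, Dusp6 -0.086 and Spred2 -0.053), FGF10 against PBS (Dusp5 -0.96, Dusp6 0.076, Spry2 0.056 and Spred2 0.045), FGF2 against FGF10 (Dusp6 -0.13 and Spred2 -0.47) and PBS against DMSO (Dusp6 -0.13 and Spry1 -0.36).

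With the replicate set as a term, signs turned in FGF2 against PBS (Dusp5 -2.98, Dusp6 -0.024 and Spred2 -0.17) and FGF2 against FGF10 (Dusp6 -0.20, Spry1 -0.97 and Spred2 -0.18). Within replicates 1 and 2 they turned in FGF2 against PBS (Dusp5 -10.28, Dusp6 -0.65, Spred1 -0.20 and Spred2 -1.20), FGF10 against PBS (Dusp5 -1.19, Dusp6 0.42, Spry2 0.051 and Spry4 0.73) and FGF2 against FGF10 (Dusp6 -1.08, Spry1 -1.98 and Spred2 -0.67). Between the replicate sets, the PBS libraries alone turned Dusp5 (-2.40). The values at or beyond 5 for Dusp5 come from groups in which most libraries had no count.

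With each library left out in turn, values of both signs occurred in SAG against DMSO (Spry2 -0.11 to 0.28, Spred2 -0.96 to 0.19 and Spred1 -0.74 to 0.064), FGF2 against PBS (Dusp5 -9.47 to 1.23, Dusp6 -0.55 to 0.89 and Spred2 -0.32 to 0.63), FGF10 against PBS (Spry4 -1.36 to 0.13, Etv5 -1.12 to 0.35, Spry2 -0.25 to 0.064, Spred2 -0.71 to 0.071 and Dusp5 -0.44 to 2.92), FGF2 against FGF10 (Etv4 -0.64 to 0.76, Dusp6 -0.020 to 1.29, Spry1 -0.49 to 1.16, Spred2 -0.065 to 0.97 and Dusp5 -2.28 to 0.57) and PBS against DMSO (Spry4 -0.70 to 4.49, Spred2 -1.09 to 0.064 and Spry1 -0.22 to 0.60). Genes under about 20 CPM often had libraries without a count, and the errors of the others reflect the spread between libraries.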
